A study of Mus musculus with 12 samples.

Results

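The nuclear genes for the oxidative phosphorylation machinery were described in mouse muscle. A gene was taken as a member when a probe set of the array was annotated to its symbol alone and that symbol began with Nduf, Sdha, Sdhb, Sdhc, Sdhd, Uqcr, Cyc1, Cox4, Cox5, Cox6, Cox7, Cox8 or Atp5. The rule found 95 genes on 186 probe sets, out of 18193 genes that had such a probe set, and the brightest probe set stood for each gene. Of these, 42 belong to complex I, 8 to complex II, 9 to complex III, 19 to complex IV and 17 to complex V. The symbol rule also took in proteins that are not subunits: the complex I assembly factors Ndufaf1 to Ndufaf8, the complex II assembly factors Sdhaf1 to Sdhaf4, and Cox7a2l, which joins complexes III and IV into supercomplexes. Ndufa4 and its relative Ndufa4l2 were counted with complex IV, where the Ndufa4 protein is now known to sit, despite their complex I symbols.

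Oxidative phosphorylation makes most of the ATP of a working muscle. Complexes I and II pass electrons from NADH and succinate to coenzyme Q, complex III hands them to cytochrome c, and complex IV reduces oxygen; complexes I, III and IV pump protons whose return through complex V drives ATP synthesis. Most subunits are encoded in the nucleus and the remaining few in mitochondrial DNA, so the nuclear genes must be expressed together, and the nuclear respiratory factors NRF1 and GABPA, the factor YY1, the estrogen-related receptors and their coactivator Ppargc1a are known activators of this set. Slow, oxidative muscle fibres hold more of this machinery than fast, glycolytic fibres.

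The study crossed genotype with diet in mice of 16 weeks on a mixed 129/Sv and C57BL/6 background. Muscle total RNA of 12 mice was hybridised to 12 Affymetrix arrays: 3 wild-type (WT) mice on a normal diet, 3 WT on a high fat diet, 3 GPR120 knockout (KO) mice on a normal diet and 3 KO on a high fat diet. Ffar4 encodes GPR120, a membrane receptor that responds to long-chain fatty acids; the sources used here do not give the way the gene was disrupted, the muscle sampled, the sex or the length of feeding. Each group has mouse numbers from a range of its own, and group and cohort cannot be told apart.

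The deposited values were log2 array signals, and array medians lay between 3.87 and 4.16. The Ffar4 probe set could not check the genotype labels: its mean was 1.61, below the signal filter of 3.78, with 0.23 on average in WT and 2.48 in KO on the normal diet, and 1.41 against 2.31 on the high fat diet. All 9 fast and general muscle fibre markers (among them Ckm, Acta1 and Myh4) passed the filter. Of 8 cardiac markers, 4 passed it (Myh6, Myl4, Tnnt2 and Actc1), and Nppa, Nppb, Myl7 and Tnni3 were below it. Of 7 brown fat markers, 3 passed it, and Ucp1 was among those below it. Precision is limited by having 3 arrays in each group. The p-values set a difference of means against the spread between mice within groups. That spread was pooled over all groups and drawn toward that of genes of like intensity. In whole tissue, fewer cells of a type and less RNA per cell cannot be told apart.

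Of the 95 members, 92 passed the signal filter, and these were among 11345 genes tested. The 3 that did not were Cox6b2 (mean log2 signal 2.67) and Cox7b2 (0.81), isoforms known from testis, and Ndufb4 (2.26), whose bright probe sets (12.38 and 12.04) carry several symbols and were not used. The mean signals of the tested members ran from 4.18 to 13.8 with a median of 12.2, at the 98.4th percentile of all tested genes, and 71 members lay above 11. A probe set's signal depends on its probes as well as on the transcript, so these levels were not ranked between genes. The bright members were measured with a narrow error: the median standard error (SE) of the diet difference in WT was 0.08 on the log2 scale, against 0.19 over all tested genes.

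The promoters of the set were searched for the binding sequences of the activators named above, since the expression of the members is known to be coordinated. RefSeq promoters (GRCm38.p6, 250 bases before to 50 after the start) were matched for 78 of the 95 members, with 83 promoters in all. The NRF1 sequence (GCGCA and GCGC with 1 base between them) was found on either strand in 20 of the 83 (24.1%), against 4.6% of the 32851 promoters in the table. The GABPA sequence CCGGAAG, of the ETS family, was in 22 (26.5%, against 8.86%), the YY1 sequence AAGATGGCG in 7 (8.43%, against 1.4%) and the estrogen-related receptor sequence TCAAGGTCA in 2 (2.41%, against 0.423%). At least 1 of the 4 was present in 42 of 83 member promoters (50.6%) and in 13.9% of all. These are matches of letters in a window and not measured binding.

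The 250 bases before the start are printed 5′ to 3′ on the gene's strand, with matches in capitals, for 4 genes that stand for the kinds of promoter in the set. Ndufa8 (chr2:36049339-36049588, minus strand) holds the NRF1 sequence in reverse complement at position -30. Ndufb7 (chr8:83566508-83566757, plus strand) holds the GABPA sequence at -20. Sdha (chr13:74350241-74350490, minus strand) holds the NRF1 sequence at -98, -55 and -10. Sdhaf4 (chr1:24005641-24005890, minus strand), the member with the highest diet difference in WT, holds none of the 4.
Ndufa8: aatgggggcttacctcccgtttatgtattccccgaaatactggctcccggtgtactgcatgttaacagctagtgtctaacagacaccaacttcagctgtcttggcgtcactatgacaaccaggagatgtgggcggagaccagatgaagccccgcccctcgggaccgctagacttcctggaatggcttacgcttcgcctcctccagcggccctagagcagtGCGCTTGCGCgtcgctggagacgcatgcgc
Ndufb7: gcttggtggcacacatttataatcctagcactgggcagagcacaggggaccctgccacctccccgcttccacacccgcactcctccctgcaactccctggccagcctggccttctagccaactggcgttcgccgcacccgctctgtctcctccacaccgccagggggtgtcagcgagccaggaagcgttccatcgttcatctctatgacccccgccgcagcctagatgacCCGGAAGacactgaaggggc
Sdha: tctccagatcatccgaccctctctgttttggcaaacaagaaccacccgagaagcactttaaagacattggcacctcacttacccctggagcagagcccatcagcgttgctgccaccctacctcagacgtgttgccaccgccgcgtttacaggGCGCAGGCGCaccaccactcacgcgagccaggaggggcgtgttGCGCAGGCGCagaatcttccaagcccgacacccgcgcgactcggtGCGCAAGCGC
Sdhaf4: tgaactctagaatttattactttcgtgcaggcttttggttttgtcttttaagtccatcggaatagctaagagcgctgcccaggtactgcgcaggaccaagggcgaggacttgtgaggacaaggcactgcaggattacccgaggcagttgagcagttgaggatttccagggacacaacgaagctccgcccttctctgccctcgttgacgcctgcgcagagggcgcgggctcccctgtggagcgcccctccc

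In WT muscle most of the members read slightly higher on the high fat than on the normal diet, and 18 of them, from all 5 complexes, passed the test. The difference between high fat and normal diet was above 0 for 87 of 92 members, against 55.3% of all tested genes, with a median of 0.23 on the log2 scale against 0.04. In the limma model over all genes, 18 members rose (adjusted p below 0.05) and 0 fell, where 3.07% of all genes rose and 2.99% fell. At an unadjusted p below 0.05 there were 70 (76.1%, against 23.0% of all genes). Under 3 other scalings of the arrays, 86 to 88 members were above 0. In 70 members every high fat value lay above every normal diet value, which was so for 15.7% of all genes. Cox4i2, a dim probe set, was the 1 member with the reverse order. The 18 that rose had log2 differences from 0.26 to 0.74, or 1.19-fold to 1.68-fold, with a median of 0.32, and the groups did not overlap for any of them.

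The number past the threshold rested on individual mice. Leaving out WT normal diet mouse 2 or 3 left 1 member past the threshold in each case, Sdhaf4. Without WT high fat mouse 2 there were 2 (Sdhaf4 and Ndufv3), and without WT high fat mouse 3 there were 3 (Sdhaf4, Ndufb3 and Ndufb7). The count of all genes that rose fell as well, from 348 of 11345. It was 101 and 116 without WT normal diet mouse 2 and 3, and 118 and 220 without WT high fat mouse 2 and 3. Without any 1 of these mice the 18 differences ran from 0.21 upward. Their direction was not put to a test here. The WT groups did not overlap for these 18, so leaving out a mouse could not bring a difference below 0.

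The same order was seen mouse by mouse. For every array the median over members of the signal minus each gene's 12-array mean was taken. It was -0.07, -0.12 and -0.12 in the WT mice on the normal diet and 0.05, 0.13 and 0.20 in the WT mice on the high fat diet. In KO mice it was -0.10, 0.04 and -0.04 on the normal diet and 0.01, 0.00 and 0.06 on the high fat diet. The WT groups were apart, and the KO groups overlapped: KO normal diet mouse 2 lay above 2 of the 3 KO high fat mice. As the plot of array medians by complex shows, the WT groups were apart in all 5 complexes, and the KO groups overlapped in complexes I, III, IV and V but not in complex II. Of the 8 complex II members 4 are assembly factors, with a median KO diet difference of 0.32, against 0.06 for the 4 subunits. The lowest of the 4 group means was that of WT on the normal diet for 68 of 92 members (73.9%, against 32.1% of all genes), and the highest was that of WT on the high fat diet for 77.

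**Figure D1:**
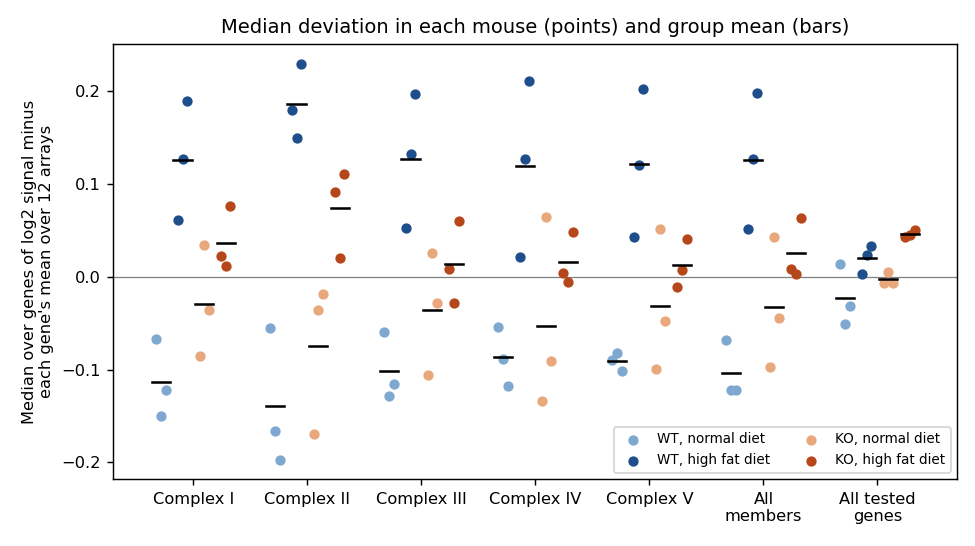
Median deviation of each complex, all members and all tested genes in each of the 12 mice (vertical axis, log2 units from each gene's 12-array mean); points are mice and bars group means. For all members the 3 WT normal diet mice lie between -0.12 and -0.07 and the 3 WT high fat mice between 0.05 and 0.20, while the KO points overlap.

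**Figure D2:**
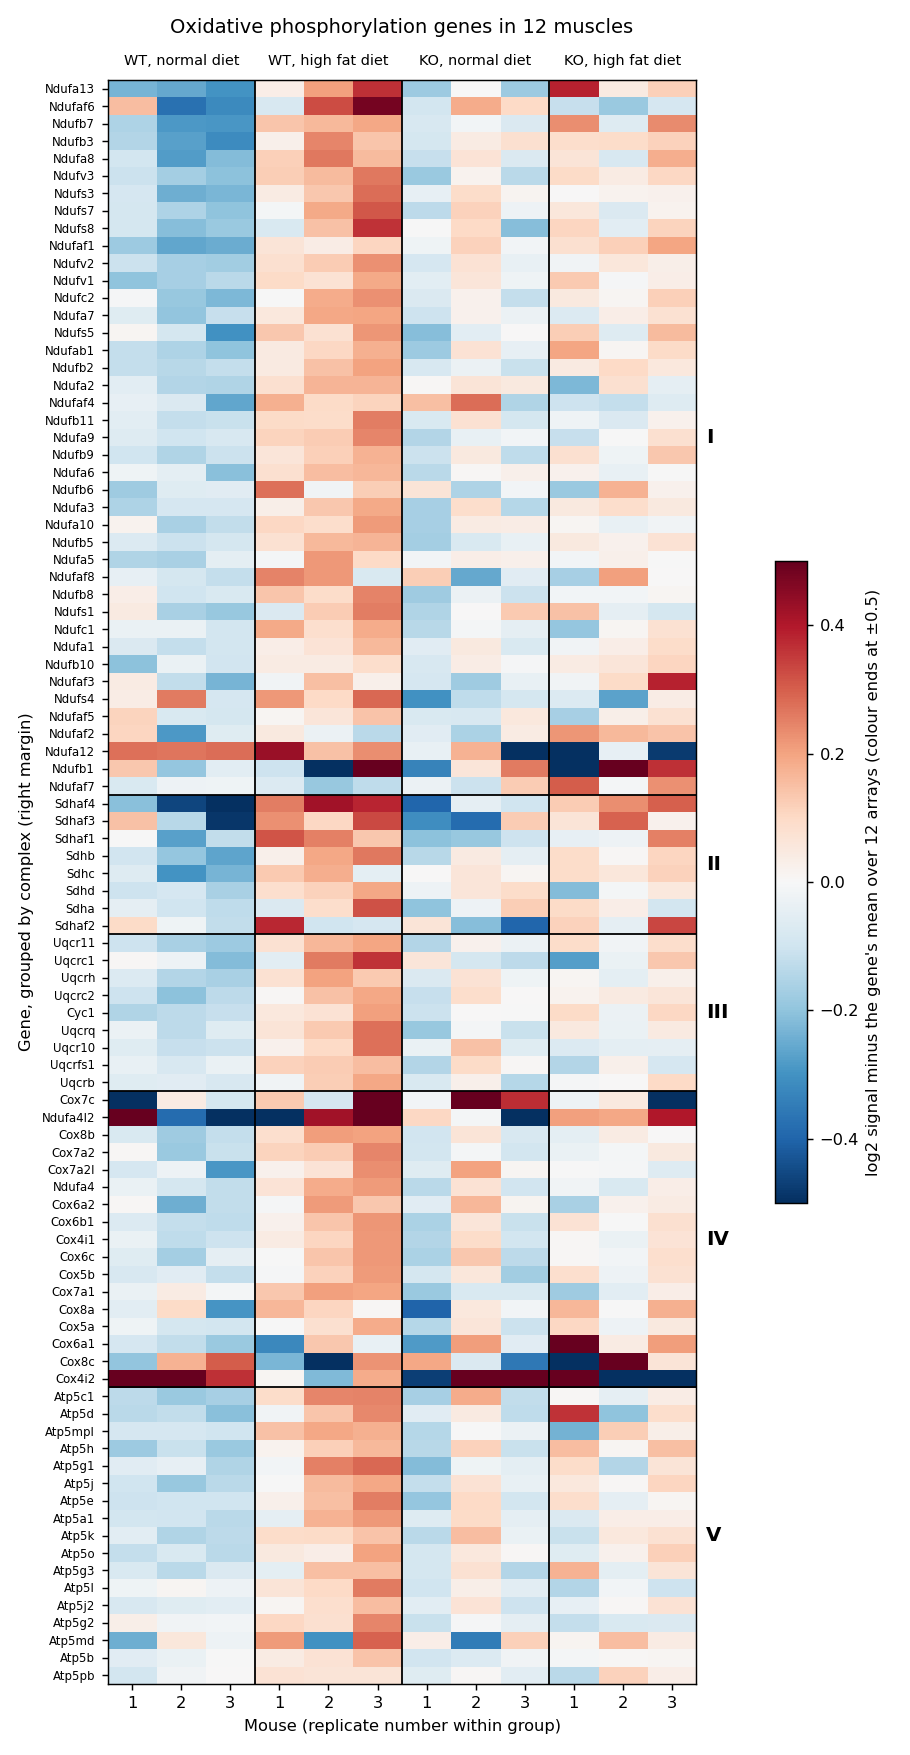
Deviation of every tested member (rows, grouped by complex) from its own mean in each of the 12 mice (columns), in log2 units on a colour scale that ends at 0.5 either way. Within a complex, rows run from the highest to the lowest diet difference in WT; most rows are below their mean in WT on the normal diet and above it in WT on the high fat diet.

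Complex I takes electrons from NADH, and 10 of its 41 tested members rose in WT on the high fat diet, 3 of them core subunits and 7 supernumerary subunits. The median difference over the 41 was 0.24, and 38 were above 0. Ndufv1, the subunit that binds NADH and the flavin, had log2 signals of 11.69, 11.73 and 11.76 in WT on the normal diet and 11.99, 11.97 and 12.08 on the high fat diet. These groups were apart, by 0.29 (SE 0.07, adjusted p = 0.0285). In KO the same probe set read 11.84, 11.95 and 11.87, then 12.03, 11.89 and 11.93, which overlap (difference 0.06, SE 0.07, adjusted p = 0.690). Its iron-sulfur partner Ndufv2 rose by 0.29 in WT (SE 0.07, adjusted p = 0.0219), from 12.47, 12.41 and 12.40 to 12.65, 12.70 and 12.80, and differed by 0.04 in KO. Ndufs3, a core subunit of the arm that leads electrons to coenzyme Q, read 12.09, 11.93 and 11.94 against 12.21, 12.31 and 12.45 in WT. It rose by 0.34 there (SE 0.08, adjusted p = 0.0220), and its KO difference was -0.01 (SE 0.08), with KO mice at 12.13 to 12.26 on the normal diet and 12.17 to 12.19 on the high fat diet. Over the 6 core subunits measured, the median difference was 0.30 in WT and 0.03 in KO.

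The supernumerary subunits surround the core and are needed for its assembly and stability. Ndufa13 had the largest complex I difference in WT, with 12.30, 12.28 and 12.23 on the normal diet and 12.57, 12.74 and 12.90 on the high fat diet. That is a rise of 0.46 (SE 0.10, 1.38-fold, adjusted p = 0.0190). In KO it read 12.35, 12.54 and 12.35, then 12.92, 12.58 and 12.65, again without overlap, for a difference of 0.30 (SE 0.10, adjusted p = 0.106). Ndufb7 rose by 0.41 in WT (SE 0.09, adjusted p = 0.0161), from 11.55, 11.42 and 11.41 to 11.84, 11.86 and 11.90. In KO its high fat mice fell on both sides of the gap, at 11.94, 11.64 and 11.94 against 11.62, 11.69 and 11.63, and the difference was 0.19 (SE 0.09). A second Ndufb7 probe set gave 0.45 in WT and 0.28 in KO. Ndufb3 rose by 0.38 in WT (SE 0.08, adjusted p = 0.0164), from 11.29, 11.16 and 11.12 to 11.46, 11.68 and 11.57. Its KO values lay close together on both diets, at 11.34 to 11.51 and 11.52 to 11.55.

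Ndufa8, whose promoter is shown above with its NRF1 match, rose by 0.38 in WT (SE 0.09, adjusted p = 0.0239), from 11.75, 11.57 and 11.63 to 11.96, 12.11 and 12.002. The KO values overlapped, at 11.73, 11.91 and 11.77 against 11.91, 11.76 and 12.03. Ndufv3, an accessory subunit at the NADH end, rose by 0.34 in WT (SE 0.07, adjusted p = 0.0159), from 12.23, 12.17 and 12.13 to 12.46, 12.50 and 12.60. In KO it read 12.15, 12.36 and 12.20, then 12.43, 12.38 and 12.44, which do not overlap, with a difference of 0.18 (SE 0.07, adjusted p = 0.176). Ndufa7 (0.27) and Ndufb2 (0.26) were the other two that rose in WT.

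Of the 8 complex I assembly factors, 0 passed the threshold in WT (limma; 3 at an unadjusted p below 0.05), and their median difference was 0.18. Ndufaf7, which methylates a core subunit, had the lowest complex I difference in WT, -0.09 (SE 0.14). Ndufb1, the dimmest complex I member at a mean of 6.38, scattered from 5.63 to 6.88 within the WT high fat group and differed by -0.08 (SE 0.33). Ndufc1, the brightest at 13.0, differed by 0.20 (SE 0.07, adjusted p = 0.122) without overlap. Ndufa12 was the exception among bright members. Its brightest probe set read 13.20, 13.19 and 13.20 in WT on the normal diet and 13.35, 13.07 and 13.15 on the high fat diet, a difference of 0.00 (SE 0.18). In KO it scattered, with 12.88, 13.09 and 12.32, then 12.27, 12.88 and 12.44, for a difference of -0.23 (SE 0.18). The second probe set, at a mean of 12.6, gave 0.10 in WT and -0.13 in KO, and the third, at 12.1, gave 0.23 and 0.02, so the Ndufa12 values depend on the probe set.

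**Figure D3:**
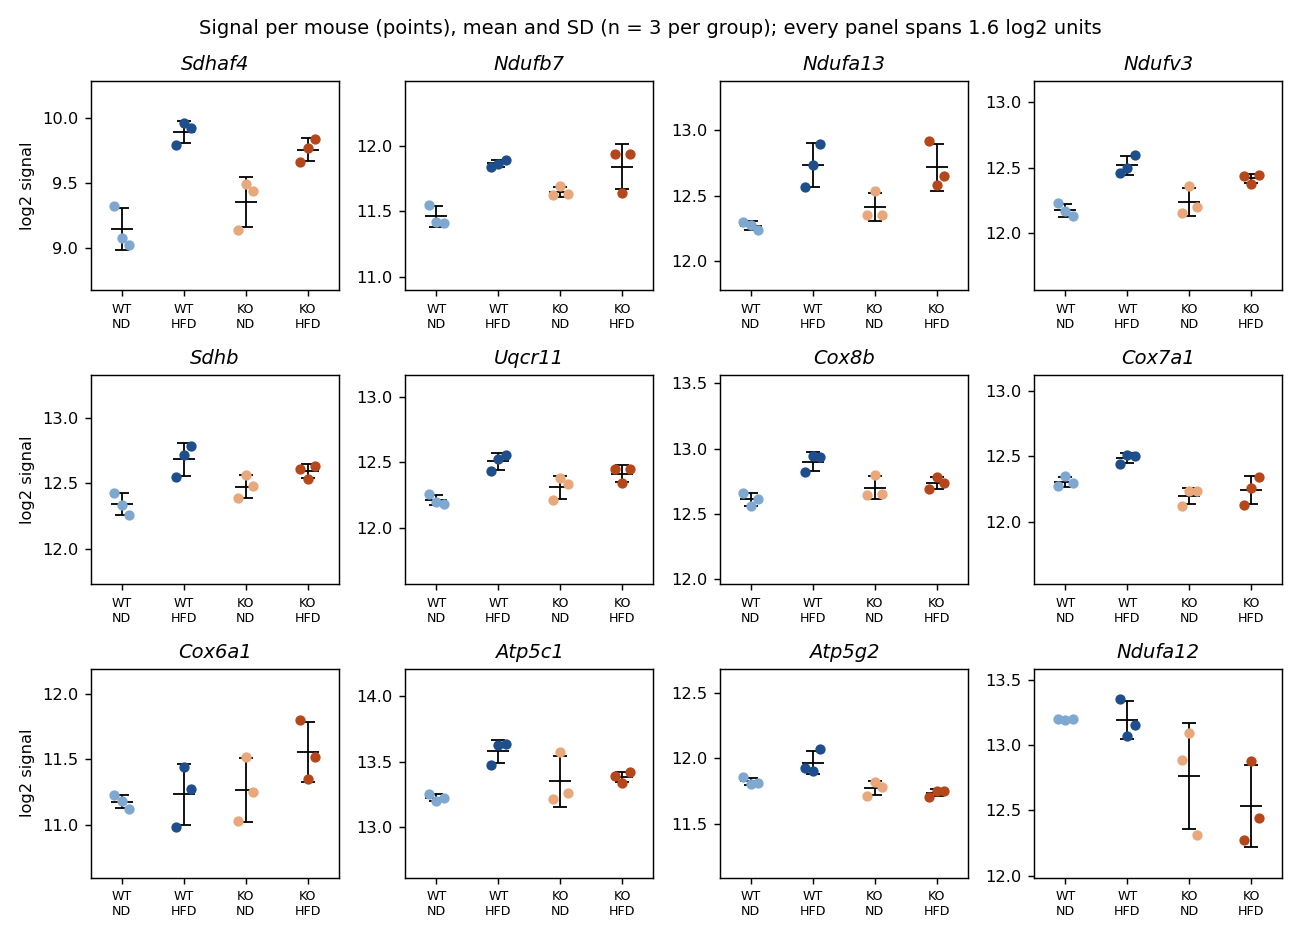
Log2 signal (vertical axis) of 12 members in each mouse (points), with group mean and SD, n = 3 per group; every panel spans 1.6 log2 units. Sdhaf4 has the widest gap between the WT groups, from 9.03 to 9.33 on the normal diet against 9.79 to 9.96 on the high fat diet.

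Complex II, succinate dehydrogenase, is built entirely from nuclear genes, and its median difference in WT was 0.32, with all 8 members above 0. Sdhaf4, which helps join Sdha to Sdhb during assembly, read 9.33, 9.08 and 9.03 in WT on the normal diet and 9.79, 9.96 and 9.92 on the high fat diet. This rise of 0.74 (SE 0.11, 1.68-fold, adjusted p = 0.00329) was the largest of all members. In KO it read 9.14, 9.49 and 9.43, then 9.66, 9.77 and 9.84; the diets did not overlap, and the difference was 0.40 (SE 0.11, adjusted p = 0.0649). Sdhb, the iron-sulfur subunit, rose by 0.34 in WT (SE 0.08, adjusted p = 0.0236), from 12.43, 12.33 and 12.26 to 12.55, 12.72 and 12.79. Its KO values overlapped, at 12.38, 12.57 and 12.48 against 12.61, 12.53 and 12.63. The flavoprotein Sdha, with its 3 NRF1 matches, overlapped between the WT diets, at 11.85, 11.79 and 11.76 against 11.82, 11.98 and 12.21 (difference 0.20, SE 0.10, adjusted p = 0.265). A second Sdha probe set, at a mean of 11.6, gave 0.00 (SE 0.13) in WT, so the Sdha value depends on the probe set. The membrane anchor Sdhd differed by 0.25 in WT (SE 0.08, adjusted p = 0.0941) and by -0.10 in KO (SE 0.08). Among the other assembly factors, Sdhaf1, the dimmest of the complex at 7.98, differed by 0.36 in WT and 0.23 in KO, and Sdhaf2 by 0.08 and 0.32. The 4 complex II assembly factors were the group with the highest KO median, 0.32, and 0 of them passed the threshold in KO. The 4 subunits had a KO median of 0.06, and the KO diets overlapped for each of them.

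Complex III was the most even, with differences between 0.16 and 0.30 in WT for all 9 members, each at an unadjusted p below 0.05, and 3 past the threshold. Uqcr11, a small subunit, rose by 0.30 (SE 0.07, adjusted p = 0.0254), from 12.26, 12.20 and 12.18 to 12.44, 12.53 and 12.56. Uqcrh, the hinge protein that supports the docking of cytochrome c, rose by 0.26 (SE 0.07, adjusted p = 0.0352), from 12.37, 12.29 and 12.28 to 12.52, 12.64 and 12.57. Uqcrc2, a core protein, rose by 0.26 (SE 0.07, adjusted p = 0.0492), from 12.68, 12.58 and 12.66 to 12.79, 12.93 and 12.98. Their KO differences were 0.11, 0.00 and 0.05, and the KO diets overlapped for all 3. The catalytic Cyc1 missed the threshold at 0.24 (SE 0.07, adjusted p = 0.0558). Uqcrb, the brightest member of the whole set at a mean of 13.8, differed by 0.16 in WT (SE 0.07), the least in this complex, and Uqcrq had the highest KO difference, 0.12 (SE 0.08). For Uqcr10 the probe sets disagreed: the brightest gave 0.23 in WT for diet, the others -0.07 and -0.28. The last of these was lower in KO than in WT on the normal diet, by -0.52 (SE 0.10, adjusted p over probe sets 0.037), where the brightest gave 0.11, so no direction is given for Uqcr10.

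Complex IV has paired isoforms, with heart and muscle forms (Cox6a2, Cox7a1, Cox8b) beside forms found in most tissues (Cox4i1, Cox6a1, Cox6b1, Cox7a2, Cox8a). Over its 17 tested members the WT median was 0.21, and 2 rose. Cox8b, a muscle form, rose by 0.29 (SE 0.07, adjusted p = 0.0258), from 12.66, 12.56 and 12.62 to 12.82, 12.95 and 12.94. Cox7a2, a widely expressed form, rose by 0.26 (SE 0.07, adjusted p = 0.0397), from 13.15, 12.96 and 13.03 to 13.25, 13.27 and 13.38. The 3 muscle forms had a median of 0.23 and the 5 widely expressed forms 0.21; the difference between the classes was not tested. The partner Cox7a1 differed by 0.18 (SE 0.07, adjusted p = 0.143), Cox6a2 by 0.23 (SE 0.09) and Cox8a by 0.18 (SE 0.13). Cox6a1 moved less in WT, by 0.06 (SE 0.14), with values of 11.22, 11.18 and 11.12 against 10.99, 11.44 and 11.27. Cox4i1 (0.21), Cox5b, the brightest of the complex (0.19), Cox6b1 (0.23) and Ndufa4 (0.24) did not pass the threshold, with adjusted p between 0.0703 and 0.143. The dim probe sets of Cox4i2 (mean 4.18), Cox7c (4.52) and Ndufa4l2 (4.90) scattered widely, with WT differences of -0.61 (SE 0.63), 0.54 (SE 0.39) and 0.34 (SE 0.42).

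Complex V, the ATP synthase, had 17 of 17 differences above 0 in WT, a median of 0.22 and 16 members without overlap, and Atp5c1 rose. Atp5c1, the rotating gamma subunit, read 13.25, 13.20 and 13.22 on the normal diet and 13.48, 13.63 and 13.63 on the high fat diet in WT, a rise of 0.36 (SE 0.09, adjusted p = 0.0285). In KO it read 13.22, 13.57 and 13.26, then 13.39, 13.34 and 13.42, with KO normal diet mouse 2 inside the range of the WT high fat mice, and the KO difference was 0.03 (SE 0.09). A second Atp5c1 probe set was dim, at 4.40, and gave -0.04 (SE 0.33). The 3 genes Atp5g1, Atp5g2 and Atp5g3 code for the same mature c subunit of the rotor ring, and they differed in WT by 0.26 (SE 0.09), 0.14 (SE 0.07) and 0.18 (SE 0.08), each without overlap and short of the threshold. The peripheral stalk gene Atp5h differed by 0.26 (SE 0.08, adjusted p = 0.0649) and the brightest Atp5pb probe set by 0.10 (SE 0.07), the smallest of the complex. A second Atp5pb probe set, at a mean of 12.4, gave 0.26 (SE 0.06, adjusted p over probe sets 0.0367). The catalytic beta subunit Atp5b read 12.59, 12.61 and 12.65 against 12.69, 12.72 and 12.79 in WT, apart by 0.12 (SE 0.06, adjusted p = 0.255). The dimmest member, Atp5mpl at 11.4, differed by 0.26 (SE 0.09, adjusted p = 0.0953).

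Most further probe sets had the sign of the brightest for the diet difference in WT, but not all. Of 168 member probe sets above the filter, 26 were past the threshold upward and 0 downward (limma, adjusted over all probe sets). That count comes from a fit of its own, and no share over all probe sets is given beside it. Beyond the brightest, 76 probe sets in 47 genes could be compared, and 59 had the sign of the brightest; the median of the 76 was 0.23. In 4 genes, Atp5a1, Atp5d, Atp5k and Atp5pb, a further probe set passed upward where the brightest did not, by 0.26 to 0.33. For Ndufs4 the brightest gave 0.13 (SE 0.11) and the further ones were below 0. They gave -0.28 (SE 0.18), -0.23 (SE 0.13) and, at a mean of 4.28, -0.74 (SE 0.39).

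In KO muscle the diet difference of the members was small, and 0 of 92 passed the threshold (limma; 5 at an unadjusted p below 0.05, or 5.43%, against 19.9% of all genes), where 4.54% of all genes did. The median was 0.07 against 0.05 over all tested genes, and the count above 0 was 76. This direction depended on scaling: with each array centred on its median over all probe sets, which moved the median of all tested genes by -0.12, the member median was -0.045 and 29 of 92 were above 0. The diets did not overlap, high fat above normal, for 13 members, against 16.3% of all genes. Ndufa13, Ndufb2, Ndufb3, Ndufb5, Ndufb8, Ndufb10, Ndufv3, Sdhaf1, Sdhaf4 and Atp5b were without overlap in both genotypes. The 18 genes that rose in WT had a KO median of 0.08 and a range from -0.01 to 0.40. Markers of macrophages and white fat moved with diet in KO. The summed signal of 8 macrophage markers was 2489 to 3303 on the normal and 3982 to 6781 on the high fat diet. Adgre1, Lyz2 and Ctss were past the threshold. That of 6 white fat markers was 7220 to 11241 and 15474 to 16998, with Fabp4 past it. Sums of 7 endothelial markers (1285 to 1557 and 1192 to 1813) and 4 Schwann cell markers (1224 to 1366 and 907 to 1477) overlapped. Their part in the small diet difference of the members was not tested.

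**Figure D4:**
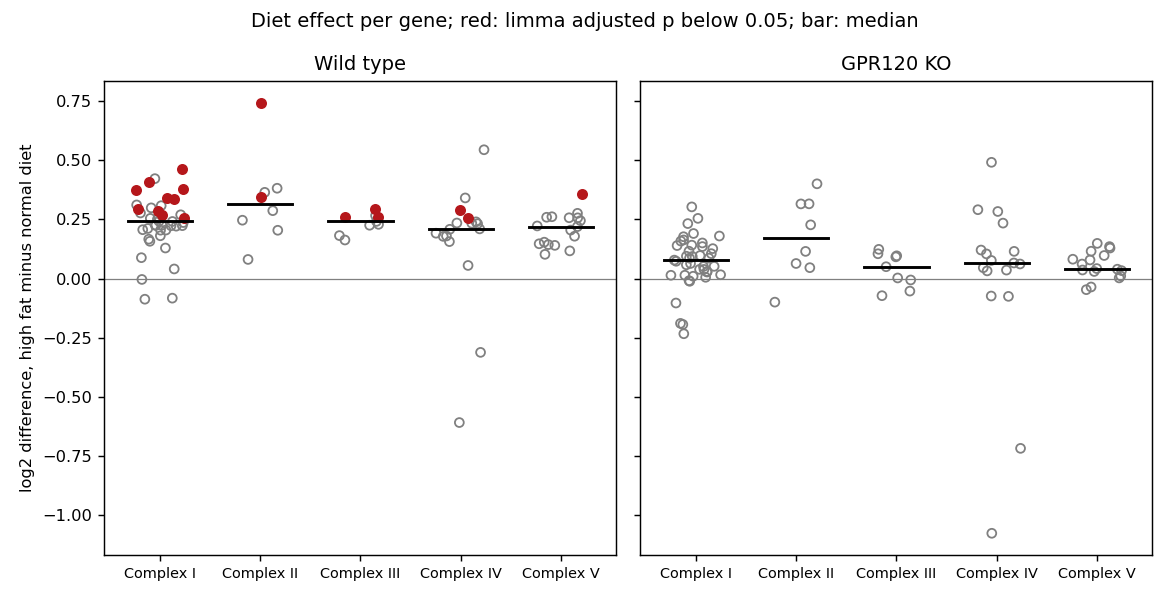
Log2 difference between high fat and normal diet (vertical axis) for each member by complex, in WT (left) and KO (right); filled red points passed the threshold (limma adjusted p below 0.05), open points did not, and bars are medians. The WT medians lie between 0.21 and 0.32 and the KO medians between 0.04 and 0.17; the lowest points are the dim Cox4i2 and Cox7c.

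The test of the difference between the 2 diet effects called 0 members (limma; 20 at an unadjusted p below 0.05, or 21.7%, against 10.4% of all genes), where 0.141% of all genes were called. The KO minus WT difference was below 0 for 83 of 92 members, that is, the diet difference was larger in WT, with a median of -0.17 against 0.01 over all genes. Other bright genes leaned the same way: among 446 with a mean above 11 the median was -0.10, with 127 above 0. All 9 complex III and all 17 complex V members were below 0 by their brightest probe sets. Further probe sets were above 0 for Uqcr10 (0.08, SE 0.12, and 0.30, SE 0.13), Atp5h (0.02, SE 0.11) and Atp5o (0.05, SE 0.25). Ndufs3 and Sdhd had values of -0.35 (SE 0.11, 95% interval -0.58 to -0.11, adjusted p = 0.298) and -0.35 (SE 0.12, -0.60 to -0.09, adjusted p = 0.335). For Atp5c1 it was -0.32 (SE 0.12, -0.58 to -0.06, adjusted p = 0.378), and for Sdhaf4 -0.34 (SE 0.16, -0.69 to 0.01, adjusted p = 0.481). A difference in diet response between the genotypes was thus not established for any member after adjustment, and the intervals do not show that the responses were alike.

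The genotype comparisons share their arrays with the diet comparisons, so their values are given beside them and not as separate support. On the normal diet, KO minus WT was above 0 for 72 of 92 members with a median of 0.06 (all genes 0.02), and 0 were called (limma; 8 at an unadjusted p below 0.05, or 8.70%, against 11.3% of all genes), against 0.414% of all genes. Ndufb3 (0.25, SE 0.08, adjusted p = 0.226) and Ndufs3 (0.21, SE 0.08, adjusted p = 0.313) were examples of higher KO values there. On the high fat diet the direction turned: KO minus WT was below 0 for 80 of 92, with a median of -0.10 (all genes 0.03). There 0 were called (limma; 21 at an unadjusted p below 0.05, or 22.8%, against 14.8% of all genes), against 0.732% of all genes.

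On the high fat diet every KO value lay below every WT value for 30 members, against 8.39% of all genes. Cox7a1, the muscle isoform, read 12.44, 12.51 and 12.50 in WT and 12.13, 12.26 and 12.34 in KO, a difference of -0.25 (SE 0.07, adjusted p = 0.117). Atp5g2 read 11.93, 11.91 and 12.07 in WT and 11.71, 11.75 and 11.75 in KO, a difference of -0.23 (SE 0.07, adjusted p = 0.123). Atp5l, a membrane subunit, differed by -0.23 (SE 0.07, adjusted p = 0.140), and the brightest Ndufa12 probe set by -0.66 (SE 0.18, adjusted p = 0.0913), with -0.45 for the next brightest and -0.10 for the set after it. Cox7a1 was also lower in KO on the normal diet, by -0.11 (SE 0.07, adjusted p = 0.606), and the groups did not overlap there. The opposite sign was seen for Cox6a1, at 0.32 (SE 0.14, adjusted p = 0.317), and for Ndufaf7, at 0.30 (SE 0.14, adjusted p = 0.322). Of the marker sums of other cells, that of 4 Schwann cell markers was higher in KO on the high fat diet. It was 691 to 852 in WT and 907 to 1477 in KO, without overlap. The sums were 2096 to 4130 and 3982 to 6781 for macrophages and 8730 to 15485 and 15474 to 16998 for white fat, which overlap. Endothelial sums were 1323 to 1523 and 1192 to 1813, and erythroid sums 30 to 54 and 32 to 36, with no shift to higher KO values. On the normal diet the Schwann sum was 779 to 1065 in WT and 1224 to 1366 in KO, and the macrophage sum 3476 to 3851 and 2489 to 3303. Their part in the results was not tested.

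The other bright genes of the muscle moved in part the same way. Among 446 other genes with a mean above 11, the diet difference in WT had a median of 0.13, with 309 above 0 and 40 higher and 26 lower past the threshold. Among the 71 members as bright, the median was 0.23, with 70 above 0 and 17 and 0 past it. In KO the medians were 0.00 for the other bright genes and 0.06 for the members. For KO minus WT on the high fat diet they were -0.09 and -0.10. For the difference between the diet effects they were -0.10 and -0.18, with 127 of 446 and 1 of 71 above 0. At an unadjusted p below 0.05 (limma) for diet in WT were 42.4% of the other bright genes and 85.9% of the members. The diets did not overlap there, high fat above normal, in 177 and 63 genes. For genotype on the high fat diet the shares were 24.2% and 25.4%, with KO below WT without overlap in 101 and 26. The members thus lay above other genes of like brightness for the diet difference in WT and beside them for genotype on the high fat diet. These differences between sets were not tested.

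**Figure D5:**
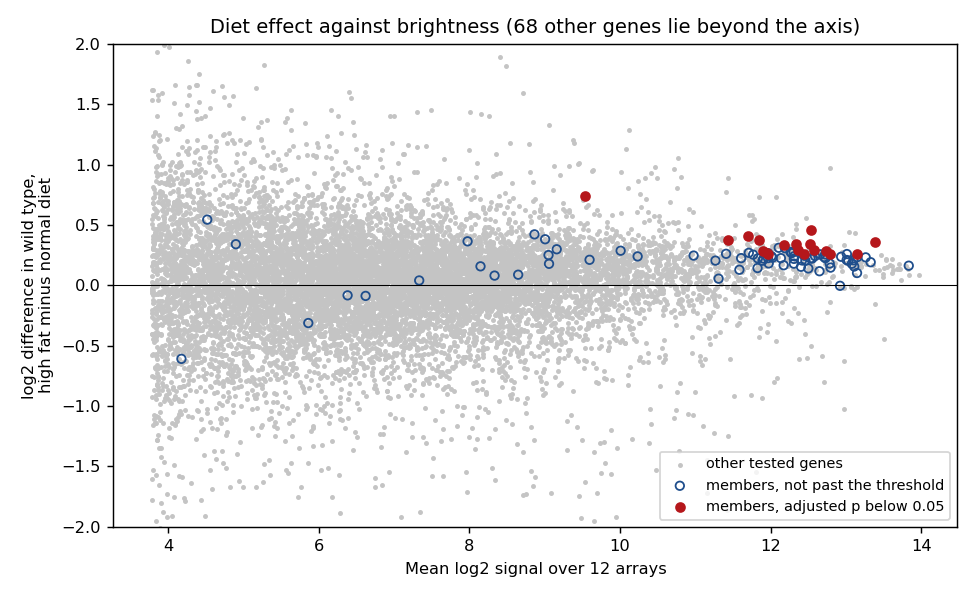
Diet difference in WT (vertical axis, log2) against mean log2 signal (horizontal axis) for all tested genes (grey) and the members (open blue; filled red past the threshold); 68 other genes lie outside the vertical range. Of the 71 members with a mean above 11, 70 lie above 0.

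Genes that serve the same machinery without carrying the symbols were read from lists. Of 15 tested genes for other electron carriers and coenzyme Q, 4 rose in WT on the high fat diet and 0 in KO. Of all 11345 tested genes, 348 rose in WT (3.07%) and 302 in KO. Etfdh, which feeds electrons from fatty acid oxidation to coenzyme Q, rose by 0.65 in WT (SE 0.09, adjusted p = 0.00163) and differed by 0.23 in KO (SE 0.09, adjusted p = 0.177). Its electron donors Etfa and Etfb rose by 0.43 (SE 0.08, adjusted p = 0.0119) and 0.42 (SE 0.09, adjusted p = 0.0152). The fourth was Coq5, a methyltransferase of coenzyme Q synthesis (0.54, SE 0.12, adjusted p = 0.0222). The list's median was 0.22 in WT and 0.07 in KO, much as for the members.

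Of 30 tested assembly factors with other symbols, 4 rose in WT and 1 in KO, with medians of 0.23 and 0.08 (all genes: 348 of 11345 rose in WT and 302 in KO). Coa6, which delivers copper to complex IV, rose in both genotypes, by 0.42 in WT (SE 0.10, adjusted p = 0.0247) and 0.38 in KO (SE 0.10, adjusted p = 0.0467). The copper chaperone Cox17 (0.37), the complex III factor Uqcc2 (0.29) and the F1 assembly factor Atpaf1 (0.46) rose in WT, with adjusted p between 0.0253 and 0.0381. From mitochondrial DNA only ND5 had a usable probe set, with 0.13 in WT (SE 0.10, adjusted p = 0.486) and 0.16 in KO (SE 0.10, adjusted p = 0.430).

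Among 23 regulators of these genes, 2 rose in WT and 2 in KO (all genes: 348 of 11345 in WT and 302 in KO). The list's median was 0.05 in WT and -0.07 in KO. Ppargc1a, the coactivator of mitochondrial biogenesis, rose by 0.87 in WT (SE 0.22, adjusted p = 0.0354) and differed by -0.38 in KO (SE 0.22, adjusted p = 0.362). The difference between its diet effects was -1.25 (SE 0.31, adjusted p = 0.197). Its relative Ppargc1b rose in both, by 0.83 (SE 0.22, adjusted p = 0.0411) and 0.90 (SE 0.22, adjusted p = 0.0374), and Tfb1m, a mitochondrial rRNA methyltransferase, rose in KO by 0.56 (SE 0.15, adjusted p = 0.0484). The factors whose sequences were searched in the promoters did not pass: Nrf1 -0.67 (SE 0.33, adjusted p = 0.251), Gabpa -0.08 (SE 0.12), Yy1 -0.03 (SE 0.12) and Esrra 0.13 (SE 0.11) in WT. Among the members that rose, 3 of 19 promoters held the NRF1 sequence and 5 of 19 the GABPA sequence, against 16 and 17 of 61 for the other tested members. The YY1 and estrogen-related receptor sequences were in 0 and 0 of the 19, against 7 and 2 of the 61. These shares were not tested.

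Several measures moved with the diet difference in WT. The summed signal of 11 slow fibre markers was 17092 to 21639 in WT on the normal diet and 23951 to 27744 on the high fat diet, and 25466 to 28046 and 24955 to 32100 in KO; Myl2, Myl3 and Tnnc1 rose in WT, by 0.42, 0.53 and 0.39. The sum of the 9 fast and general fibre markers was 100608 to 103341 in WT on the normal diet and 105614 to 119646 on the high fat diet, with 9 of 9 differences above 0, a median of 0.13 and 0 past the threshold (limma; 2 at an unadjusted p below 0.05). The 7 brown fat markers summed to 104 to 153 and 159 to 197 in WT, with Ucp1, Elovl3, Otop1 and Cpn2 below the filter. Of the 3 that were tested, 2 had a difference above 0, and the median was 0.24. Cidea rose by 1.34, and the lowest of the 3 differed by -0.24. The log2 ratio of 3′ to 5′ control signals, a measure of RNA quality, was taken as the mean of actin and Gapdh. It was on average -0.02 (SD 0.09) in WT on the normal diet and 0.18 (SD 0.02) on the high fat diet. In KO it was 0.07 (SD 0.06) and 0.16 (SD 0.13). The WT groups were apart for actin, at 0.09, 0.42 and 0.14 against 0.59, 0.64 and 0.58. For Gapdh they overlapped, at -0.25, -0.24 and -0.28 against -0.27, -0.24 and -0.25. With the mean ratio in the model, the 18 differences were 0.24 to 0.78 and 1, Sdhaf4, passed the threshold. Of all 11345 genes, 92 rose in that model, against 348 without the ratio. The part of the fibre and brown fat markers in the result was not tested.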

How the data were processed

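Muscle RNA of 12 mice was measured on 12 Affymetrix arrays. The authors deposited log2 signals; the submitters' processing notes name MAS5 without a version. The trimmed mean of the linear signals was 100.0 on every array, and the values were used as deposited. Of 45101 probe sets 64 controls were removed; of the rest, 34945 carried 1 gene symbol, 932 several and 9160 none, from GEO's platform annotation. Genes were kept where the mean log2 signal exceeded the median of all probe sets, 3.78 (13.8 on the linear scale).

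A model with 1 mean per group was fitted over 11345 genes in limma 3.58.1 (R 4.3.3) with the prior variance following intensity (residual df 8, prior df 5.42). P-values were adjusted by Benjamini-Hochberg over all genes within each of 5 comparisons, at a threshold of 0.05; differences carry their SE, and the script was tested on simulated data. Python 3.11.15 (scipy 1.17.1, pandas 2.3.3, numpy 2.4.6, matplotlib 3.10.9) made the tables and figures.

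Members and gene lists were chosen with earlier results of these data known. Members named with values were, per complex, up to 8 past the threshold, the extremes of each diet difference, the brightest and dimmest, the isoform pairs and those whose probe sets disagree, and from each list up to 3 with the smallest adjusted p; Ndufa7, Ndufb2, Sdha, Cyc1, Atp5b, the fourth gene of a list, the regulators tied to a promoter sequence and the other genes named without values were added after their values were seen. Alternatives were other scalings, offsets, filters, probe set rules and models, and each mouse left out. The sources used here give no batch dates.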

Additional observations from a re-analysis of the deposited data

How the results depend on the processing

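The median diet difference of the members in WT was 0.23 and stayed between 0.16 (quantile normalization) and 0.28 under every alternative. The 18 members that rose stayed above 0 in all of them. Leaving out a mouse could not change that, because their WT groups did not overlap. The number past the threshold was less stable. It was 9 with quantile normalization, 1 with median centring, 6 with no filter, 30 with a filter at the 75th percentile, 1 with no intensity trend, 6 with a fit on the compared groups alone and 1 with the 3′ to 5′ ratio in the model. Leaving out each mouse gave 1 to 21. The count of all genes that rose changed too, from 348 of 11345. In the order above it was 320, 144, 260 of 18193, 416 of 6959, 149, 160 and 92, and 101 to 500 when each mouse was left out. Sdhaf4 passed in all 24 alternatives, with adjusted p from 0.00223 to 0.0372. Median centring also changed the split of all genes called in WT from 348 higher and 339 lower to 144 and 304.

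For diet in KO, 1 member passed with quantile normalization and 1 with array weights, in both cases Sdhaf4 (0.43 and 0.41, adjusted p = 0.0499 and 0.0316). The KO member median of 0.07 became -0.045 with median centring and 0.011 with centring on the tested genes, an alternative chosen after seeing the data. For KO minus WT on the high fat diet the medians under these centrings were -0.16 and -0.18, and for the difference between the diet effects -0.25 and -0.24. Quantile normalization moved both toward 0, to -0.043 (64 of 92 below 0, from 80) and -0.12. On the high fat diet 1 member, Atp5g2 (-0.32, adjusted p = 0.0431), passed with centring on the tested genes, and 0 to 1 passed when each mouse was left out: Ndufa12, without KO normal diet mouse 3 (-0.66, adjusted p = 0.0459) or KO high fat mouse 2 (-0.84, adjusted p = 0.0490). The cause was not tested for any of these. No paired analysis was possible because the mouse numbers are not shared between groups. No alternative reversed a direction among the members named with values where they passed the threshold. Leaving out a mouse could not do so for the 18 that rose in WT.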
